A study of Mus musculus with 17 samples.

Results

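Notch receptors, their ligands and their best known target genes were followed in all 17 libraries of a mouse study of renal ageing and senescence. The set holds 10 genes, chosen by name and not by a rule on their values, though with earlier results of these data known. The genes are the receptors Notch1, Notch2, Notch3 and Notch4, the ligands Jag1, Jag2, Dll1 and Dll4, and the targets Hes1 and Hey1. Each symbol was matched to 1 Ensembl gene identifier, and all 10 were found among the 53313 identifiers that the 17 count tables share. Primary tubular epithelial cells (PTEC) were grown in REGM2 medium from collagenase-digested, sieved kidney tubules of wild-type mice, of the strain labelled C57BL/6Rj and named C57BL/6JRj in the methods of the study. Non-senescent PTEC were taken at day 6 (n = 4), and senescent PTEC had received 10 Gy of γ-irradiation at confluence and were taken at day 16 (n = 4). Irradiation and the longer culture therefore cannot be told apart. Whole kidneys came from male wild-type mice of the same strain, with no treatment given, at 3, 12 and 24 months of age (n = 3 each). Nothing in the labels says that the 4 cultures of a group came from separate animals, so p-values measure only the spread between these cultures.

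Notch signalling passes between touching cells. A ligand of the Jagged or Delta-like family on one cell pulls on a receptor of its neighbour, ADAM proteases and then γ-secretase cut the receptor, and its intracellular part enters the nucleus, where it joins the DNA-binding protein RBPJ and switches on Hes and Hey repressors. In the kidney the pathway is known for the patterning of nephron segments, above all the proximal tubule and podocyte, and it is active again after tubular injury. Notch4 and Dll4 are best known from endothelium, and Notch3 from vascular smooth muscle and pericytes.

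Depth ranged from 26963442 to 35409144 counts in the cultures and from 37311247 to 66894790 counts in the kidneys, and no pair of replicates was alike within counting error. The tubular label was checked against 15 proximal tubule genes. Their summed level was 267 to 1105 CPM (counts scaled to a common library size) in PTEC and 15053 to 28859 CPM in kidneys, and only 6 or 7 of them reached 1 CPM in the poorest culture of a group. Hnf4a, the transcription factor that keeps proximal tubule identity, was present at 103 CPM in non-senescent PTEC and fell to 13.1 CPM in senescent PTEC. Endothelial genes were present in the cultures as well: Pecam1 lay between 8.43 and 39.8 CPM in the 8 libraries. In such bulk samples, fewer cells of a type and less RNA per cell cannot be told apart.

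The receptor genes lie at chr2:26457903-26516663 for Notch1 (minus strand), chr3:98013527-98150361 for Notch2 (plus strand), chr17:32120820-32166852 for Notch3 (minus strand) and chr17:34564268-34588503 for Notch4 (plus strand) on GRCm38. Among the ligands, Jag1 lies at chr2:137081456-137116644 (minus strand), Jag2 at chr12:112907819-112929776 (minus strand), Dll1 at chr17:15367354-15376872 (minus strand) and Dll4 at chr2:119325784-119335962 (plus strand). Hes1 lies at chr16:30064384-30067796 (plus strand) and Hey1 at chr3:8663359-8667256 (minus strand). Exons of Notch1, Notch2, Notch3, Dll1 and Dll4 share bases with other annotated genes, and the strand setting of the counting was not given in the sources used here. The largest such stretch has 1068 bases, between Notch1 and the opposite-strand gene 0610009E02Rik, which reached at most 0.676 CPM in PTEC. In kidneys its mean was 1.64, 1.89 and 1.05 CPM at 3, 12 and 24 months, with a maximum of 2.27 CPM. Gm14207, which shares 214 exon bases with Dll4 on the opposite strand, had means of 0.990, 0.790 and 0.422 CPM at these ages and at most 0.415 CPM in PTEC. The part of such reads in the Notch1 and Dll4 values was not tested.

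The bases in front of the start sites are shown for the 2 receptors that passed the test in PTEC, Notch1 and Notch3, and for Hey2 and Lfng, 2 of the 4 genes that hold the RBPJ letters in a window among 13 risen other pathway genes with one. The remaining ones, Poglut1 and Maml2, are not printed, and the choice was made after the values were seen. All are RefSeq windows of 250 bases on GRCm38.p6, written 5′ to 3′ on the strand of the gene: Notch1 at chr2:26503823-26504072 (minus strand), Notch3 at chr17:32166891-32167140 (minus strand), Hey2 at chr10:30842784-30843033 (minus strand) and Lfng at chr5:140607091-140607340 (plus strand). The Notch1 window lies inside the gene span given above, so its RefSeq start is an internal one of that span. In Notch1 and Notch3 capitals mark the N-box, CACNAG on either strand, a motif that Hes repressors are known to bind. In Hey2 and Lfng capitals mark TGGGAA on either strand, the core of the RBPJ motif.
Notch1: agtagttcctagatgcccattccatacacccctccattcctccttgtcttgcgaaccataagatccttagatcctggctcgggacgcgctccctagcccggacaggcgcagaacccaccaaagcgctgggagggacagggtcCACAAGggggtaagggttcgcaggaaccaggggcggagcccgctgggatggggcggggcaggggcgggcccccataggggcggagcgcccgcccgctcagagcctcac
Notch3: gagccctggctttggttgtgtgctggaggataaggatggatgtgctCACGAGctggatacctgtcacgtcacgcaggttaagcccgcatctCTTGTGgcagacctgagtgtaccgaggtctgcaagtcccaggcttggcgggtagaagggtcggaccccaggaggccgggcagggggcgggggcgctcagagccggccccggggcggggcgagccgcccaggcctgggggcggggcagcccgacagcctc
Hey2: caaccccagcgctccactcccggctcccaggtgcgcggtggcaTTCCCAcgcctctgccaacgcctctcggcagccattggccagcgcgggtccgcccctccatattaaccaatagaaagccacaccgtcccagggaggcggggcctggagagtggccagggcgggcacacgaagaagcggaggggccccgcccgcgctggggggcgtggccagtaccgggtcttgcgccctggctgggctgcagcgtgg
Lfng: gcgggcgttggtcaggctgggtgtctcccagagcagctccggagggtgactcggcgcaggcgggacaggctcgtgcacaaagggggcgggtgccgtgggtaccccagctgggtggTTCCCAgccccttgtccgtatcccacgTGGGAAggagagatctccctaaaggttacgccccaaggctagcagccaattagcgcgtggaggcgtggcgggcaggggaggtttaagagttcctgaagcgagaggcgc

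RefSeq windows were at hand for 8 of the 10 genes, namely all receptors and ligands. None of the 8 held TGGGAA, which occurs in 21.6% of all 32851 windows of this length and in at least 1 window of 24.1% of all genes. The N-box occurred in 4 of the 8, namely Notch1, Notch2, Notch3 and Dll4, against 36.7% of all windows and 40.1% of all genes. The match in Notch1 begins 108 bases before the start, and those in Notch3 begin 204 and 159 bases before it. Hey2 holds its TGGGAA match 207 bases before the start on the opposite strand, and Lfng holds matches 135 and 108 bases before it. In Hey2 and in the nearer Lfng match the letters extend to GTGGGAA, found in 5.42% of all windows. Of 54 other pathway genes with 1 or more windows (74 in all), 16 held TGGGAA. A match describes letters and is not a measured binding site.

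Senescent and non-senescent PTEC were compared to learn which genes differ once the cells have stopped dividing after irradiation. Notch3 rose, Jag1 and Hes1 rose less, and Notch1 fell, while Notch2, the most abundant receptor, and the other 5 genes did not pass the test. A gene counts as risen or fallen at an adjusted p under 0.05, from the quasi-likelihood test of edgeR over all 15434 genes tested, with a log2 fold change beyond 0.5. By that rule 3 of the 10 genes rose and 1 fell. Of all genes tested 20.1% rose and 19.7% fell, so a changed gene was common in this comparison. The median log2 fold change was 0.27 over the 10 genes and -0.0020 over all genes tested.

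Notch3 (ENSMUSG00000038146.7), the receptor of mural cells, stood at 3.63, 7.16, 3.14 and 12.0 CPM in the 4 non-senescent cultures and at 26.4, 20.9, 35.6 and 37.3 CPM in the senescent ones. Each senescent culture was above each non-senescent one, and the groups did not overlap. This gave a log2 fold change of 2.22 ± 0.41 (SE), with an adjusted p of 0.00214 from edgeR. Between cultures of the same replicate number the ratio ran from 2.92 to 11.3. Leaving out any 1 of the 8 cultures kept the call, with log2 fold changes from 1.998 to 2.69.

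Notch1 (ENSMUSG00000026923.15), the receptor with the broadest roles in development, stood at 55.1, 72.1, 36.0 and 90.2 CPM in non-senescent PTEC and at 34.8, 39.6, 24.9 and 26.5 CPM in senescent PTEC. The lowest non-senescent culture, replicate 3, lay within the senescent range, so the groups overlapped, but the senescent culture was the lower one in each of the 4 pairs of equal number. In edgeR the log2 fold change was -1.01 ± 0.27 (SE), with an adjusted p of 0.0142. With any 1 culture left out it stayed between -1.20 and -0.80 and was called each time.

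Notch2, the receptor needed for proximal tubule formation in the developing nephron, stood at 164, 201, 66.9 and 258 CPM in non-senescent PTEC and at 241, 208, 125 and 177 CPM in senescent PTEC. The groups overlapped, and only non-senescent replicates 3 and 4 lay outside the senescent range, on either side of it. The log2 fold change of 0.12 ± 0.36 (SE) had an adjusted p of 0.808 from edgeR. Notch4, the endothelial receptor, was lower in the senescent culture of all 4 pairs, with 6.92, 18.1, 4.78 and 9.78 CPM against 5.66, 10.7, 4.30 and 6.22 CPM. Its log2 fold change of -0.56 ± 0.42 (SE) did not pass the test (adjusted p = 0.305, edgeR). It rested on single cultures, being -0.096 without non-senescent replicate 2 and -0.87 without senescent replicate 2.

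Jag1 (ENSMUSG00000027276.7), the ligand that tubular epithelium is known to raise after injury, had 265, 270, 87.7 and 202 CPM in non-senescent PTEC and 377, 319, 349 and 515 CPM in senescent PTEC. The groups did not overlap, and replicate 3 of the non-senescent cultures stood far below its group. Jag1 had a log2 fold change of 0.92 ± 0.32 (SE), with an adjusted p of 0.0406 from edgeR. Without that culture it was 0.67 and still called. The call was lost in 4 of the 8 fits with 1 culture left out, namely without non-senescent replicate 4 (0.91) and without senescent replicates 1 (0.94), 2 (1.01) or 4 (0.76). It was also lost with no filter on low counts.

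The other 3 ligands were far lower and did not pass the test. Jag2 stood between 5.87 and 12.1 CPM in non-senescent and between 6.94 and 12.3 CPM in senescent PTEC. Dll1, a ligand of developing nephrons, had 5.16, 6.70, 5.45 and 6.76 CPM in non-senescent PTEC against 4.73, 5.19, 14.2 and 11.6 CPM in senescent PTEC. Senescent replicates 3 and 4 were thus high and replicates 1 and 2 were not, and the log2 fold change of 0.57 ± 0.35 (SE) had an adjusted p of 0.216 in edgeR. Without senescent replicate 3 it was 0.27. Dll4, the ligand of sprouting vessels, stood between 3.61 and 13.3 CPM and between 4.96 and 9.67 CPM, respectively.

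Hes1 (ENSMUSG00000022528.7), the repressor through which much of Notch signalling acts, stood at 31.6, 35.3, 37.7 and 31.8 CPM in non-senescent PTEC and at 41.6, 40.0, 64.7 and 49.5 CPM in senescent PTEC. The groups lay close to each other but did not overlap, and the log2 fold change of 0.52 ± 0.17 (SE) had an adjusted p of 0.0316 in edgeR and lay just beyond the fold limit. With the replicate number as a block it was 0.50 (adjusted p = 0.0115, edgeR), just inside the limit and not called. The call was lost in 5 of the 8 fits with 1 culture left out: without non-senescent replicates 1 (0.48), 2 (0.53) or 4 (0.48) and without senescent replicates 3 (0.37) or 4 (0.52). Hey1, a related repressor, was low throughout, with 1.33 to 3.01 CPM in non-senescent and 2.52 to 3.28 CPM in senescent PTEC, and did not pass the test (log2 fold change 0.41 ± 0.30 SE, adjusted p = 0.294, edgeR). It was 0.25 without non-senescent replicate 3 and 0.63 without non-senescent replicate 1. Groups that did not overlap were found for Notch3, Jag1 and Hes1, 3 of the 10 genes, while 42.0% of all genes tested did so.

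**Figure D1:**
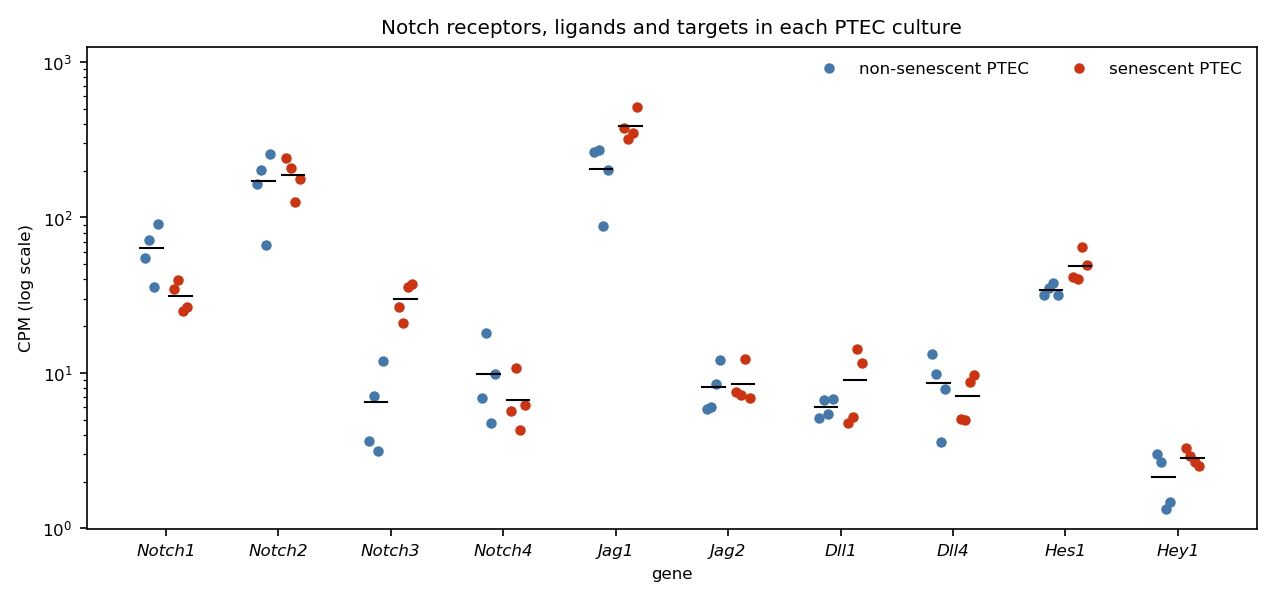
Level of each of the 10 genes in every PTEC culture, in CPM on a log axis; points are cultures and bars are group means. Notch3 lies at 20.9 CPM or above in all senescent cultures and at 12.0 CPM or below in all non-senescent ones, while the Notch2 points of the groups overlap, with 1 non-senescent culture (66.9 CPM) below all senescent ones.

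To compare genes with each other, CPM was divided by exon length and each receptor was given as its share of the 4 receptors. Notch2 made up 70.1 ± 4.68% (SD, n = 4) of the receptor level in non-senescent PTEC and 71.2 ± 6.17% in senescent PTEC. The share of Notch1 was 20.8 ± 3.50% and 9.17 ± 1.25%, and that of Notch3 was 3.49 ± 0.993% and 16.2 ± 6.71%. By mean share Notch1 was thus second in non-senescent and Notch3 in senescent PTEC, and neither share overlapped between the groups. The summed receptor level was 22.5 ± 9.93 CPM per kilobase in non-senescent and 24.2 ± 4.43 in senescent PTEC. Jag1 made up 86.8 ± 3.98% and 92.8 ± 2.58% of the 4 ligands.

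Kidneys had another make-up. Notch2 was again the first receptor, with mean shares from 42.5% to 46.6% at the 3 ages. Notch4 came second with 21.7% to 26.7%, against 5.59% in non-senescent PTEC. Jag1 held 41.4 ± 3.94% of the ligand level at 3 months, 30.3 ± 2.002% at 12 months and 39.4 ± 3.27% at 24 months (SD, n = 3). The share of Dll4 was 24.4 ± 1.58%, 42.4 ± 4.02% and 29.9 ± 7.23% at these ages, so that at 12 months Dll4 and not Jag1 had the highest mean share.

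**Figure D2:**
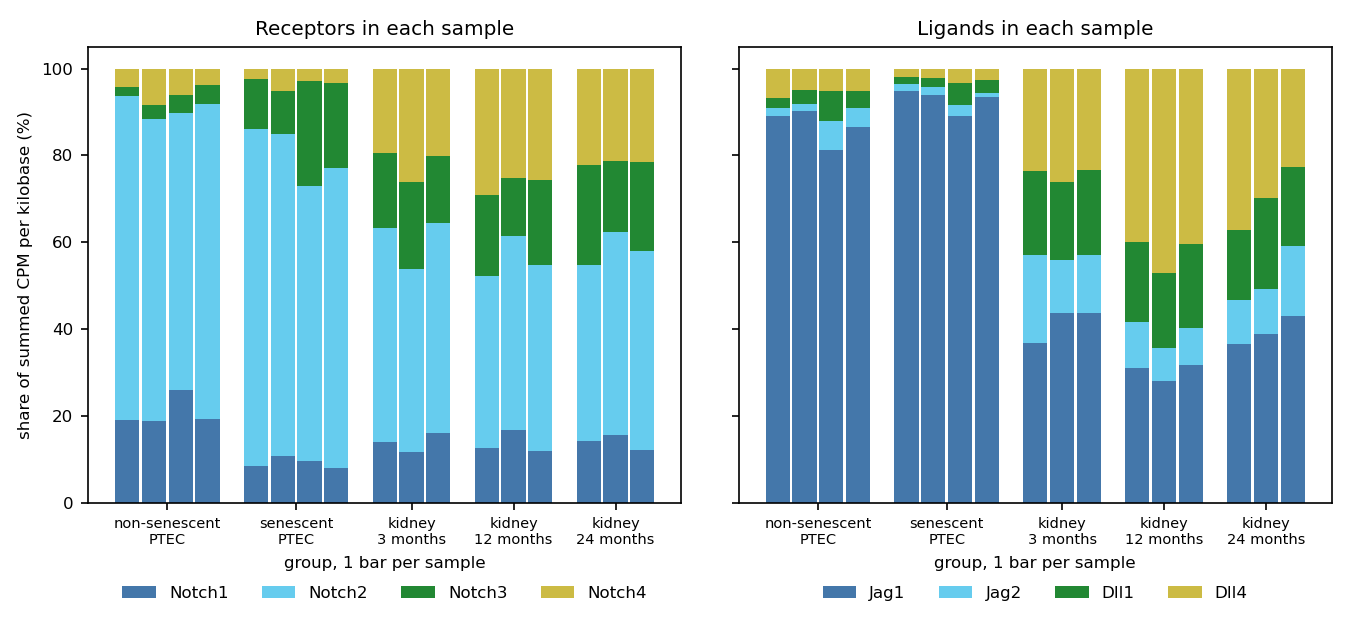
Share of each receptor (left) and each ligand (right) in the summed CPM per kilobase of the 4 receptors or 4 ligands, 1 bar per sample. In PTEC Notch2 and Jag1 take most of each bar, whereas Notch4 and Dll4 are wide only in kidneys, with mean shares of at least 21.7% and 24.4%.

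Across the 5 groups the levels were put on 1 scale, CPM per kilobase with a joint scaling of all 17 libraries, as a description without a test. Jag1 ran from 52.3 ± 11.3 (SD, n = 4) in senescent PTEC over 28.1 ± 11.6 in non-senescent PTEC to 3.51 ± 0.217, 2.96 ± 0.519 and 2.34 ± 0.308 (n = 3 each) in kidneys of 3, 24 and 12 months. The ranges of both PTEC groups and of the kidneys were separate, while neighbouring ages overlapped. Notch2 ran from 13.6 ± 3.55 in senescent and 12.7 ± 5.87 in non-senescent PTEC to 3.61 ± 0.503, 3.17 ± 0.637 and 3.12 ± 0.439 in kidneys of 24, 3 and 12 months. Only the step from PTEC to kidney was free of overlap.

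Notch1 had the order non-senescent PTEC (3.54 ± 1.28), senescent PTEC (1.73 ± 0.378) and kidneys of 24, 12 and 3 months (1.15 ± 0.280, 0.990 ± 0.0194 and 0.931 ± 0.106). Each neighbour in that order overlapped the next. Notch3 was highest in senescent PTEC (2.91 ± 0.752) and lowest in non-senescent PTEC (0.634 ± 0.397), with the kidneys between 1.24 ± 0.491 and 1.67 ± 0.638. Notch4 was highest in kidneys, from 1.54 ± 0.671 at 3 months to 1.97 ± 0.397 at 12 months, and lowest in senescent PTEC (0.651 ± 0.265). In Notch3 and Notch4, too, all neighbours overlapped.

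The remaining genes differed less between the groups, and in each of them all neighbours in the order overlapped. Hes1 lay between 12.2 ± 1.08 in 12-month-old kidneys and 18.8 ± 4.48 in senescent PTEC. Dll4 was highest in 12-month-old kidneys (3.27 ± 0.389), Jag2 in 3-month-old kidneys (1.31 ± 0.439), and Dll1 (1.66 ± 0.884) and Hey1 (0.682 ± 0.0817) in senescent PTEC. For Jag2, Dll1, Dll4, Hes1 and Hey1 the order changed when PTEC and kidneys were scaled apart, for Jag2 including its first place, while for the 4 receptors and Jag1 it did not.

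Kidneys of the 3 ages were compared to learn what changes with age in the intact organ. None of the 10 genes passed the test in edgeR between 12 and 3, 24 and 3 or 24 and 12 months, among 17067 genes tested. At an unadjusted p under 0.05 there were 3, 0 and 1 of them, respectively, and DESeq2 called 2 (both lower), 0 and 1 (higher). The unadjusted limit was met by 16.5%, 18.2% and 15.2% of all genes, respectively. DESeq2 was run without the filter on low counts, on 30029 genes, so its shares include many low genes and are not on the edgeR gene set. Of these genes DESeq2 called 1.77% higher and 1.92% lower from 3 to 12 months. From 3 to 24 months it called 2.42% and 1.03%, and from 12 to 24 months 1.64% and 0.952%. In edgeR, of all genes 1.22% rose and 1.36% fell from 3 to 12 months, 1.89% rose and 0.451% fell from 3 to 24 months, and 0.896% rose and 0.434% fell from 12 to 24 months. The 3-month-old kidneys had been counted on another gene set than the older ones, so that difference and age cannot be told apart in the comparisons with 3 months. The 3 comparisons share samples, and their values are given side by side.

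Jag1, the first ligand at 3 and 24 months, stood at 15.7, 17.8 and 16.3 CPM at 3 months, at 10.3, 9.85 and 12.7 CPM at 12 months and at 16.9, 12.5 and 12.6 CPM at 24 months. All 12-month-old kidneys were below all 3-month-old ones, and the 24-month-old kidneys overlapped both. From 3 to 12 months the log2 fold change was -0.60 ± 0.17 (SE), with an unadjusted p of 0.00569 and an adjusted p of 0.101 in edgeR, while DESeq2 gave an adjusted p of 0.0348.

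Jag2, a second Jagged ligand, stood at 10.3, 5.96 and 5.96 CPM at 3 months, at 4.13, 3.22 and 4.09 CPM at 12 months and at 5.73, 4.03 and 5.70 CPM at 24 months. The kidneys of 3 months were above those of both other ages, the first of them by far. From 3 to 12 months Jag2 had a log2 fold change of -0.96 ± 0.26 (SE), with an adjusted p of 0.0947 in edgeR and 0.0210 in DESeq2. Without the first 3-month-old kidney it was -0.64. From 3 to 24 months it was -0.52 ± 0.26 (SE), with an adjusted p of 0.312 in edgeR, and without the first 3-month-old kidney it was -0.21.

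The summed markers of the distal nephron moved with both Jagged ligands in the kidneys, though not every gene of the list did. The summed level of 13 distal tubule and collecting duct genes was 1718, 1395 and 1531 CPM at 3 months, 1021, 879 and 1141 CPM at 12 months and 1483, 1156 and 1471 CPM at 24 months, and all 13 reached 1 CPM in each kidney. As for Jag1 and Jag2, all 12-month-old kidneys were below all 3-month-old ones. The collecting duct genes Aqp2, a water channel (474, 104 and 234 CPM on average at 3, 12 and 24 months), and Avpr2, the vasopressin receptor (45.3, 15.04 and 17.2 CPM), fell from 3 to 12 months in edgeR, and the other 11 genes did not pass the test. Slc12a3, the salt transporter of the distal convoluted tubule, had means of 302, 414 and 559 CPM. It went against the sum from 3 to 12 months and rose with it from 12 to 24 months. The means of Aqp3 (124, 85.2 and 81.0 CPM), Scnn1g, Atp6v1g3, Slc4a1 and Foxi1 were lower at 24 than at 12 months. Those of the other genes of the list, such as Calb1 (313, 212 and 292 CPM), were higher. Of the 10 marker lists this sum had the highest r with either gene over the 9 kidneys. For Jag1 r was 0.85 and rho 0.70, with an r of 0.61 without the 2 kidneys farthest from the median sum, and for Jag2 these were 0.92, 0.83 and 0.93. The sum of the 10 pericyte, mesangium and smooth muscle genes was also lower at 12 months (218 to 260 CPM) than at 3 months (295 to 323 CPM), and it stayed low at 24 months (211 to 267 CPM). Its r with Jag1 was 0.74. For Jag2 the sum of 5 arterial endothelium genes gave an r of 0.82 and a rho of 0.75, with an r of 0.47 without the 2 farthest kidneys. All these values pool the 3 ages, and 3 kidneys an age are too few for a value within an age. The part of distal tubule, collecting duct, mural or arterial endothelial cells in the Jag1 and Jag2 values was not tested.

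Dll4 stood at 6.67, 7.07 and 5.76 CPM at 3 months, at 8.71, 11.0 and 10.7 CPM at 12 months and at 11.4, 6.35 and 4.41 CPM at 24 months. The 12-month-old kidneys were above the 3-month-old ones, and the 24-month-old kidneys spanned both groups. The log2 fold change from 3 to 12 months was 0.64 ± 0.31 (SE), with an adjusted p of 0.359 in edgeR. Dll1 stayed between 3.86 and 5.99 CPM in all 9 kidneys. An opposite-strand gene that shares 867 exon bases with Dll1, A930024N18Rik, was counted in the 3-month-old kidneys and in PTEC but was not among the genes of the older kidneys.

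Hes1 stood at 27.5, 21.1 and 24.6 CPM at 3 months, at 18.2, 19.6 and 21.9 CPM at 12 months and at 35.0, 29.5 and 27.4 CPM at 24 months. Each 24-month-old kidney was above each 12-month-old one. The log2 fold change from 12 to 24 months was 0.62 ± 0.16 (SE), with an unadjusted p of 0.0031 and an adjusted p of 0.0999 in edgeR. DESeq2 gave an adjusted p of 0.0116. No label pairs kidneys of these 2 ages. Deviations of equal number had an r from 0.172 to 0.557, but 24-month replicate 1 with 12-month replicate 3 gave 0.270. With the number as a block and these ages alone, a fit added after the data were seen, edgeR called Hes1 with 0.62 and an adjusted p of 0.0145. That block was read off the same data, so its call adds no support to the Hes1 difference. The block over all 9 kidneys gave an adjusted p of 0.249 in edgeR.

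The summed level of 6 proliferation genes moved with Hes1 in the kidneys. It lay between 4.24 and 4.92 CPM at 12 months, between 6.39 and 7.29 CPM at 3 months and between 14.2 and 33.1 CPM at 24 months, and all 6 genes were detected in each kidney. Within the 24-month-old kidneys the sum was 22.6, 33.1 and 14.2 CPM, an order that Hes1 did not follow. In PTEC the same sum went the other way, from 724 to 1359 CPM in non-senescent cultures to 24.2 to 43.5 CPM in the senescent ones, where Hes1 rose. In kidneys of 12 and 24 months the sum of 6 loop of Henle genes did not overlap either (3065 to 3523 against 3977 to 4959 CPM). Nor did the distal tubule and collecting duct sum (879 to 1141 against 1156 to 1483 CPM). Over the 9 kidneys, with the ages pooled, r with Hes1 was 0.84 for the proliferation, 0.49 for the loop of Henle and 0.63 for the distal sum. The part of dividing, loop of Henle, distal tubule or collecting duct cells in the Hes1 values was not tested.

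The 4 receptors overlapped between all ages. Notch2 stood at 29.0, 32.8 and 21.6 CPM at 3 months, at 26.6, 23.3 and 31.2 CPM at 12 months and at 36.6, 27.5 and 30.7 CPM at 24 months. Notch3 stood at 7.69, 11.7 and 5.20 CPM, at 9.35, 5.21 and 10.7 CPM and at 15.6, 7.14 and 10.2 CPM, respectively. In both genes the kidneys of 1 age differed from each other more than the means of the ages did. Notch1 stayed between 9.40 and 12.1 CPM in 8 kidneys and reached 17.01 CPM in the first 24-month-old one. Notch4 lay between 6.68 and 15.1 CPM at 3 months, between 9.80 and 14.6 CPM at 12 months and between 9.39 and 14.9 CPM at 24 months. Over the 3 comparisons the log2 fold changes of the receptors lay between -0.13 for Notch4 from 12 to 24 months and 0.42 for Notch3 from 3 to 24 months, which was 0.090 without the first 24-month-old kidney.

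Hey1 was the lowest gene, with 1.94, 0.983 and 1.53 CPM at 3 months, 0.729, 0.954 and 0.791 CPM at 12 months and 0.916, 0.957 and 1.11 CPM at 24 months, from 34 to 102 counts a library over all 17 libraries. Its log2 fold change from 3 to 12 months was -0.84 ± 0.28 (SE), with an adjusted p of 0.163 in edgeR. Between 12 and 3 months 4 of the 10 genes (Jag1, Jag2, Dll4 and Hey1) did not overlap, against 20.3% of all genes. Between 24 and 3 months it was Jag2 alone, against 22.0%, and between 24 and 12 months Hes1 alone, against 25.6%.

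**Figure D3:**
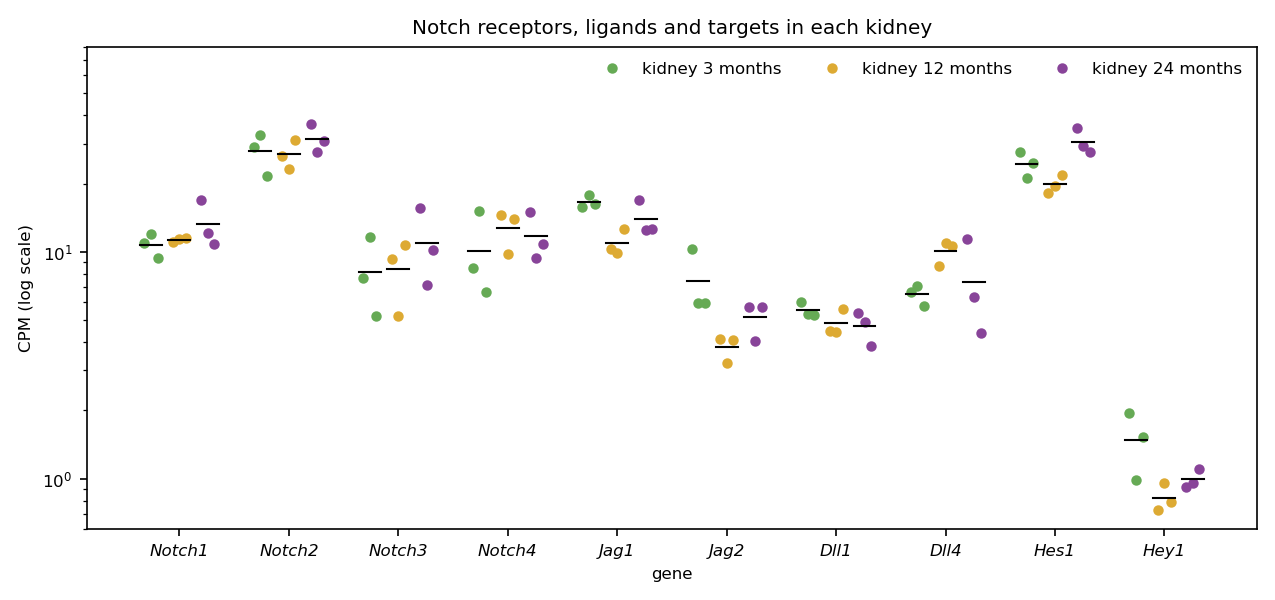
Level of each of the 10 genes in every kidney, in CPM on a log axis; points are animals and bars are means of 3. The 3 Jag1 points at 12 months lie below those at 3 months, and the 3 Hes1 points at 24 months lie above those at 12 months, whereas the receptors overlap.

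**Figure D4:**
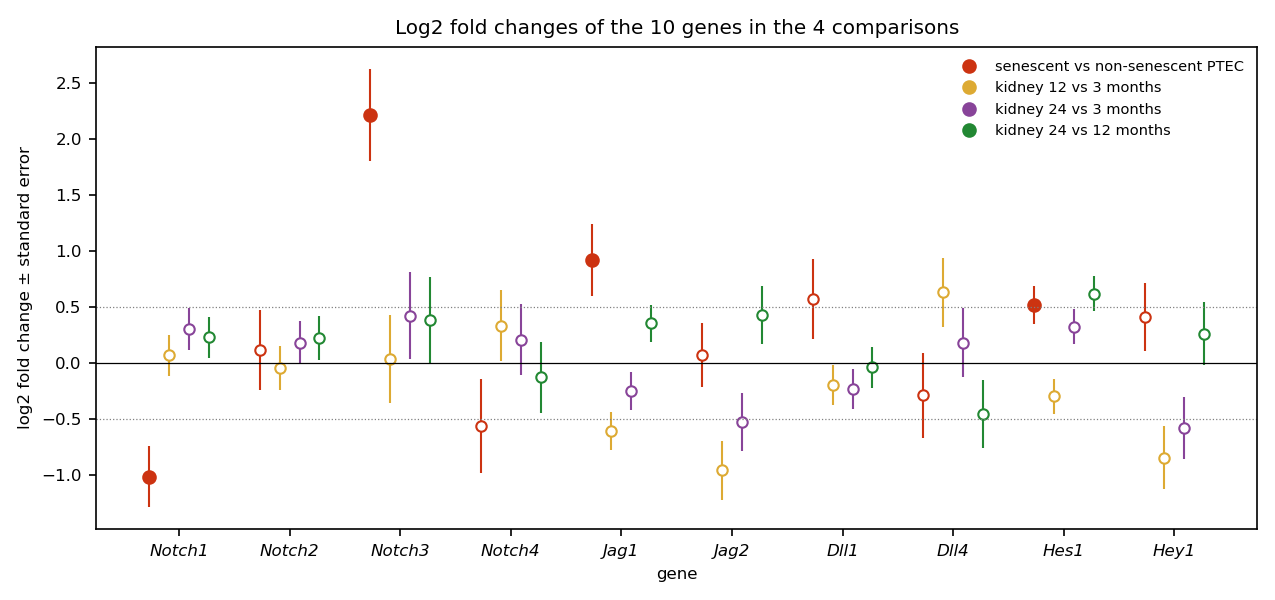
Log2 fold change with its standard error for the 10 genes in the 4 comparisons from edgeR; filled points passed the test and dotted lines mark a log2 fold change of 0.5 either way. Filled points occur only in the PTEC comparison, at Notch1 (-1.01), Notch3 (2.22), Jag1 (0.92) and Hes1 (0.52).

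Marker genes of other cell types were read beside the receptors. In PTEC the summed level of 10 pericyte, mesangium and smooth muscle genes was 346, 382, 251 and 309 CPM in the non-senescent cultures and 2285, 1315, 961 and 1782 CPM in the senescent ones, with the contractile genes Acta2 and Tagln as the main contributors. Of these 10 genes, 9 could be tested, 5 rose and 2 fell. Pdgfrb, the pericyte receptor, rose from 3.86 to 10.8 CPM and Rgs5 from 1.21 to 4.72 CPM, whereas Cspg4 and Gata3 fell, Myh11 and Des did not pass the test, and Ren1 lay between 0 and 0.361 CPM. Notch3 was higher in the same cultures. Among the senescent ones, replicate 3 had the lowest marker sum and the second highest Notch3 level, and 4 cultures are too few to read a link from their order. Over the 8 cultures r between Notch3 and this sum was 0.86, and with the podocyte sum it was 0.74. The PTEC groups form separate clusters in this sum, which alone can give a high r. In the 9 kidneys r between Notch3 and this sum was 0.030, rho 0.033 and r without the 2 kidneys farthest from the median sum 0.60. The same values were 0.90, 0.93 and 0.77 for the podocyte sum and 0.86, 0.68 and 0.62 for the proximal tubule sum. The part of mural or other cells in the Notch3 values was not tested.

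Other marker lists also separated the PTEC groups in which Jag1 and Hes1 rose and Notch1 fell. The summed level of 7 podocyte genes was 179, 222, 98.3 and 158 CPM in non-senescent and 435, 490, 226 and 339 CPM in senescent PTEC. Of these genes 6 could be tested, and Synpo, Magi2 and Nphs1 rose, the last of them tested through the senescent cultures alone, since no non-senescent culture reached the limit of the filter on low counts. The sum of 6 loop of Henle genes went from between 20.5 and 56.6 CPM to between 4.04 and 7.73 CPM, and 5 of the 6 fell, of which Kcnj1 was tested through the non-senescent cultures alone. Together with the mural and proliferation genes, these sums did not overlap between the groups. The part of these cell types in the Jag1, Hes1 and Notch1 values was not tested.

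Notch4 was read beside the endothelial genes. The summed level of 15 endothelial genes was 175, 371, 111 and 229 CPM in non-senescent and 215, 414, 112 and 223 CPM in senescent PTEC, nearly alike in cultures of the same number. Of these genes 1 rose (Ehd3) and 2 fell (Kdr and Sox17). Across the 8 cultures Pearson's r between log2 Notch4 and the log2 sum was 0.86 and Spearman's rho 0.88, and r was 0.77 without the 2 cultures farthest from the median sum. Across the 9 kidneys r was 0.85, rho 0.82, and r without the 2 farthest was 0.86. The link was not to this list alone, since other sums went with Notch4 too. In kidneys r, rho and r without the 2 farthest were 0.88, 0.68 and 0.83 for the proximal tubule genes and 0.77, 0.88 and 0.89 for the podocyte genes. For the leukocyte genes they were 0.78, 0.58 and 0.36 in kidneys and 0.74, 0.71 and 0.78 in PTEC. Dll4 gave an r of 0.76 in kidneys, but 0.10 in PTEC. Points of an experiment share its scaling and library protocol, and cultures may share a donor by number. The part of endothelial or other cells in these values was not tested.

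**Figure D5:**
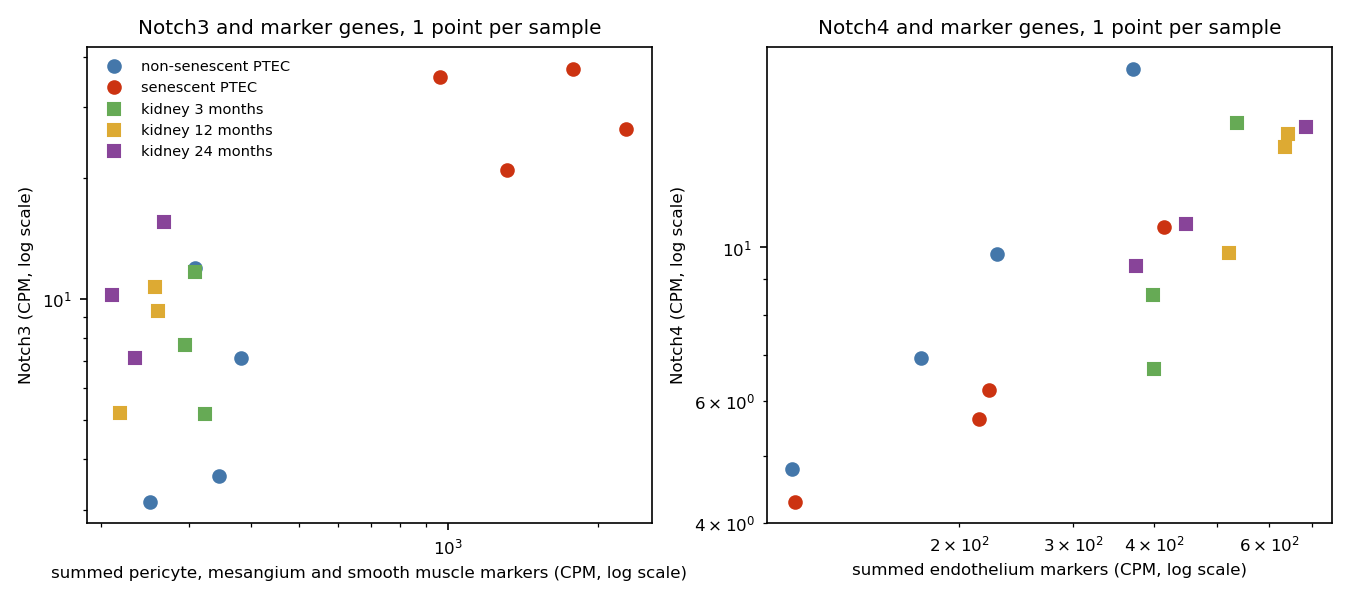
Notch3 against the summed pericyte, mesangium and smooth muscle genes (left) and Notch4 against the summed endothelial genes (right), 1 point per sample, CPM on log axes, with PTEC (circles) and kidneys (squares) scaled apart. The senescent cultures stand apart on the left, at sums of 961 CPM and more, while on the right both PTEC groups share 1 range.

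The genes most like each receptor were listed over the 9 kidneys, by Pearson's r of log2 CPM, among the 13319 genes whose mean level reached 1 CPM. For Notch3 they were Nrp1 (0.985), Afdn (0.985) and Lamc1 (0.984), and for Notch4 they were Ltbp4 (0.982), Asap1 (0.974) and Atp1b2 (0.973). For Notch2 they were Fam222a (0.976), Brpf1 (0.973) and Tent4b (0.967). For Notch1 they were 4931406P16Rik (0.973), Magi3 (0.915) and Tjp1 (0.912). Notch2 and Notch3 themselves had an r of 0.95 in kidneys, and 0.89 without the 2 kidneys farthest from the median of Notch2. These kidneys share 1 scaling, and high values are common among so many genes and so few points.

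The rest of the pathway was followed in 6 lists with 68 genes. In PTEC 62 could be tested, of which 14 rose and 8 fell, with a median log2 fold change of 0.17. Of the 14, Mfap2, Dner and Dtx1 passed the filter on low counts through the senescent cultures alone, with no non-senescent culture at its limit, so they could only be tested because they were higher there. The other pathway genes tested and all 10 Notch genes had libraries at the limit in both groups. These shares, like those of the 10 genes, stand beside the 20.1% and 19.7% of all genes. The genes named here are the 15 with the largest log2 fold changes among those that passed.

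Among the targets and feedback genes, 2 of 6 tested rose and 1 fell. Hey2, a repressor related to Hey1, stood at 1.61 ± 0.555 CPM (SD, n = 4) in senescent against 0.463 ± 0.0934 CPM in non-senescent PTEC (log2 fold change 1.78 ± 0.33 SE, adjusted p = 0.00199, edgeR). Its window with the TGGGAA match is printed above. Bhlhe41, a repressor also known from the circadian clock, rose with a log2 fold change of 1.58. Nrarp, which is induced by Notch and damps its nuclear complex, fell from 8.63 ± 2.39 to 3.08 ± 1.56 CPM (log2 fold change -1.48 ± 0.36 SE, adjusted p = 0.00833, edgeR). So the genes of this list that passed did not move in 1 direction. Hey2 lay near the filter limit of 0.334 CPM in non-senescent PTEC.

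Among 17 genes of ubiquitination and endocytosis, 5 rose and 4 fell. Neurl1b, a ubiquitin ligase acting on ligands, fell most, from 41.7 ± 2.16 to 5.45 ± 1.52 CPM (log2 fold change -2.94 ± 0.20 SE, adjusted p = 8.19e-06, edgeR). Its relatives differed, since Neurl3 fell (-1.26) and Neurl1a rose (0.98). Epn1, an endocytic adaptor, fell (-0.87). Dtx1, a ubiquitin ligase of the Deltex family, had 20 to 28 counts in each senescent culture and 0 or 1 in each non-senescent one, and is one of the 3 genes tested through the senescent cultures alone. As a description, the ratio of its summed counts per sequenced count was 45.9, with a 95% interval from 12.4 to 384 (exact, counting error only).

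Of the 5 glycosylation genes, 2 rose and none fell. Lfng, the Fringe enzyme that tunes which ligands a receptor answers to, stood at 57.2 ± 21.6 against 28.3 ± 8.64 CPM (log2 fold change 1.01 ± 0.30 SE, adjusted p = 0.0221, edgeR), and the groups overlapped. Poglut1, which adds glucose to the receptors, rose with 0.88. Among the other ligands 2 of 5 tested rose and 1 fell, and both that rose, Mfap2 and Dner, had been tested through the senescent cultures alone. Mfap2, a microfibril protein, had 89 counts in total in senescent and 8 in non-senescent cultures, a ratio of 10.5 (95% interval 5.11 to 25.1). Dner, a Notch-like membrane protein, had 56 and 11, a ratio of 4.81 (2.50 to 10.2), and Dlk2, a ligand-like protein, fell (-1.24). Both intervals cover counting error only.

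Of the 19 genes of the nuclear complex and the corepressors, 2 rose and 1 fell, and those named are Tle2, a Groucho-family corepressor (1.10), and Maml2, a coactivator of the Mastermind family (1.04). Of the 10 genes of the sheddase and γ-secretase, 1 rose and 1 fell.

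In kidneys 63 of the 68 genes could be tested. Bhlhe41 alone passed, rising from 1.35 ± 0.315 CPM at 3 months to 3.62 ± 0.848 CPM at 12 months (SD, n = 3), with a log2 fold change of 1.43 ± 0.30 (SE) and an adjusted p of 0.0468 in edgeR. The call was lost without any 1 of the 6 kidneys and in the fit of the 2 ages alone. None passed from 3 to 24 or from 12 to 24 months in edgeR. At an unadjusted p under 0.05 there were 8 and 10 of the 63, against 18.2% and 15.2% of all genes. DESeq2 called 3 and 2, all of them higher, against 2.42% and 1.64% of its genes.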

How the data were processed

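Poly(A) RNA of 8 PTEC cultures and 9 kidneys was sequenced with a stranded kit. The authors deposited 1 table per library with raw read counts per Ensembl gene, made with an nf-core pipeline on GRCm38 and not normalized. The PTEC, 3-month and older kidney tables hold 53715, 54146 and 55401 identifiers. Symbols, positions and exon lengths were taken from GENCODE annotation of GRCm38.

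Groups followed the labels. PTEC and kidneys were fitted apart in edgeR 4.0.16 (R 4.3.3) with TMM scaling, its default filter on low counts (15434 and 17067 genes left) and the robust quasi-likelihood test, with Benjamini-Hochberg adjustment over all genes tested. The thresholds, an adjusted p of 0.05 and a log2 fold change of 0.5, are those of the study, which used DESeq2. The 9 kidneys shared 1 fit. The edgeR test gives no standard error. Each SE of an edgeR log2 fold change is the absolute log2 fold change divided by the square root of its F statistic. The fits were tested on simulated data with known changes.

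Alternatives were the size factors of DESeq2, DESeq2 1.42.0, other filters and fold limits, a replicate block, the compared ages alone and leaving out each library. Deviations of PTEC cultures with the same replicate number correlated (r from 0.186 to 0.614), as did those of 12- and 24-month-old kidneys (0.172 to 0.557). Some unequal numbers gave values above the lowest of these. Senescent replicate 1 with non-senescent replicate 2 gave 0.265, and 24-month replicate 1 with 12-month replicate 3 gave 0.270. For both experiments the pairing was tried from the data and is not in the labels, and in kidneys it is not established. Kidneys of 3 months did not pair by number (r from -0.701 to -0.034 with the older ages).

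All 10 genes are named in each comparison. Of the other pathway genes, those that passed are named, up to 15 by log2 fold change, and marker lists are given by counts and sums. The 10 genes, the lists and the tests were chosen with earlier results of these data known. Promoter windows were searched in Python 3.11.15, and figures were drawn with matplotlib 3.10.9.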

Additional observations from a re-analysis of the deposited data

Results flagged for a closer look

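Senescent PTEC replicate 3 stood apart in Jag2, with 12.3 CPM against 6.94 to 7.59 CPM in the other 3 cultures. The gap to the nearest culture was 0.879 of the range of the group, above the 95% critical value of Dixon's test for 4 samples. The test was run on 20 groups of 4, and chance marks about 1 in 20. Without this culture the log2 fold change of Jag2 between senescent and non-senescent PTEC was -0.15 in place of 0.07, and neither passed the test.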

How the results depend on the processing

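In PTEC the calls of Notch1 and Notch3 were kept under every alternative run. With a log2 fold change limit of 1, 1 of the 10 genes rose, and of the other pathway genes 8 rose and 4 fell. With no filter on low counts Jag1 was not called (0.90, adjusted p = 0.0615, edgeR). With a replicate block 2 of the 10 genes rose in place of 3, since Hes1 was lost, and 1 fell. With 1 culture left out 1 to 3 rose and 1 fell, and of the other pathway genes 11 to 15 rose and 7 to 9 fell. Genes that were not called changed sign there, Notch2 from -0.14 to 0.38 and Jag2 from -0.15 to 0.32.

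In kidneys DESeq2 called 2 of the 10 genes down from 3 to 12 months and 1 up from 12 to 24 months, and of the other pathway genes 1 down, 3 up (3 to 24 months) and 2 up (12 to 24 months). With no filter on low counts 1 other gene fell from 3 to 12 months and 1 rose from 12 to 24 months. The 1 other gene that rose from 3 to 12 months was lost (0) with a replicate block and with the 2 compared ages alone. A replicate block turned Notch3 from 3 to 12 months from 0.04 to -0.0023, and it changed no other call of the 10 genes in kidneys. With the block and the 2 ages alone, an alternative chosen after seeing the data, 1 of the 10 genes rose from 12 to 24 months, and of the other pathway genes 5 rose and 2 fell. With 1 kidney left out, none of the 10 was called, and the other pathway genes gave 0 up and 0 to 1 down from 3 to 12 months, 0 to 1 down from 3 to 24 months and 0 to 1 up from 12 to 24 months. Log2 fold changes that changed sign there were, from 3 to 12 months, Notch1 (-0.019 to 0.16), Notch2 (-0.20 to 0.099) and Notch3 (-0.20 to 0.39), from 3 to 24 months Notch4 (-0.018 to 0.63) and Dll4 (-0.27 to 0.44), and from 12 to 24 months Notch4 (-0.34 to 0.013) and Dll1 (-0.14 to 0.090). The cause was not tested.

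Alternatives other than leaving out a library left 113 counts within 1.5 times the reported one and moved 15. A count of 0 that stayed at 0 is among the 113. Of the log2 fold changes of the 10 genes, 233 kept sign and call, 1 changed sign, 4 gained a call and 2 lost it. The 3 animals of each age limit the precision of the kidney values. Hey1 had as few as 34 counts in a library. Whether cultures of a group came from separate animals is not known.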
